A study of Mus musculus with 10 samples.

Results

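Tex13b, Fam49a and Adh7 are 3 of the 17737 genes listed for bulk RNA of mouse B16-F10 melanomas, and 3 of the 13798 that held enough counts to be tested. They were chosen by their levels: all D69A tumors lay below all WT tumors, and the gap between the groups was large against the spread within them. The drop between the groups and its size against the spread are therefore what chose these genes, and both are given here as a description, without a test. The choice did not use the immune content of the tumors. It did use the spread inside each group, which limits how steeply a gene can vary with immune content there.

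The 2 groups were tumors of B16-F10 cells, a C57BL/6 melanoma line, that overexpressed either IL-18 with alanine in place of aspartate 69 (D69A) or wild-type IL-18 (WT). The cells had been placed under the skin of C57BL/6 mice, and the tumors were collected on day 11. D69A tumors are numbered 1 to 5 and WT tumors 2 to 6, 5 per group. The labels do not say whether each overexpressing line was 1 clone or a pool, nor whether each tumor came from its own mouse, and tumors that overexpress neither form were not analysed here. P-values therefore measure only how far these samples spread.

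IL-18, a relative of IL-1, makes natural killer (NK) cells and T cells release interferon-gamma. Tex13b is an X-linked gene known from developing male germ cells and belongs to a family of testis-expressed genes. Fam49a, renamed Cyria, encodes CYRI-A, a protein that binds active Rac1 and restrains the WAVE complex, which switches on branched actin growth at the cell edge. Adh7 encodes the class IV alcohol dehydrogenase, which oxidises ethanol and retinol and is best known from the lining of the upper digestive tract. Oxidation of retinol is the first step from vitamin A to retinoic acid.

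The 3 genes lie on different chromosomes of mm10. Tex13b (ENSMUSG00000042386) occupies chromosome X from 140808307 to 140813433 on the minus strand, with 4 exons that add up to 2.8 kb. Fam49a (ENSMUSG00000020589) occupies chromosome 12 from 12262139 to 12380965 on the plus strand, with 15 exons of 12.6 kb in all. Adh7 (ENSMUSG00000055301) occupies chromosome 3 from 138217760 to 138233382 on the plus strand, with 10 exons of 3.79 kb in all. Exons of all transcripts were merged in the GENCODE annotation. The sequence just before each start is shown because the genes share a direction and their promoters differ in CG content. The letters come from RefSeq (GRCm38.p6), run 5′ to 3′ on the strand of the gene, end before the earliest annotated start, and have each CG dinucleotide in capitals. They span chrX:140813434-140813683 on the minus strand for Tex13b, and chr12:12261927-12262133 and chr3:138217523-138217759 on the plus strand for Fam49a and Adh7.
Tex13b: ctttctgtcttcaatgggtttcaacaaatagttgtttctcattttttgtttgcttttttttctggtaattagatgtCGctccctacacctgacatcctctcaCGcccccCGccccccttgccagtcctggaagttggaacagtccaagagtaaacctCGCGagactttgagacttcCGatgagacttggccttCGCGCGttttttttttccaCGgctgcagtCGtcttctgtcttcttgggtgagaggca
Fam49a: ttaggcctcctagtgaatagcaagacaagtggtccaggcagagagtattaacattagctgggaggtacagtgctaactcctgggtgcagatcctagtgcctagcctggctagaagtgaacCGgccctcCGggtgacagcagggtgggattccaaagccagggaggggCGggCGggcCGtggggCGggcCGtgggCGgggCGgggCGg
Adh7: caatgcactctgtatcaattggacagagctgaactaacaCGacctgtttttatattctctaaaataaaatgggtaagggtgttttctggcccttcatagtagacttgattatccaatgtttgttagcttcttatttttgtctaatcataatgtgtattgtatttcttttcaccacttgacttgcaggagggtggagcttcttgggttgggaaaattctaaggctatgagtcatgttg

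CG dinucleotides near the start were most frequent for Fam49a and least frequent for Adh7. In the window of 300 bases, 250 before and 50 after the start, Fam49a held 22 CG dinucleotides, Tex13b 13 and Adh7 3, against a median of 7 over 32851 RefSeq windows of the same length. The share of windows with fewer was 76.9% for Fam49a, 62.1% for Tex13b and 23.3% for Adh7. The letters of the interferon-gamma activated site (GAS, TTCNNNGAA) and of the core of the interferon-stimulated response element (GAAA, 2 bases of any kind, GAAA) occurred in none of the 3 windows on either strand. Of all windows, 8.3% held the GAS letters and 3.44% the response element core. The E-box letters CANNTG, which are present in 72.3% of windows, occurred once each for Tex13b and Fam49a and 2 times for Adh7, and the M-box core CATGTG, a special case of the E-box found in 14.2% of windows, occurred in none of the 3. A match or its lack describes these letters in this window only.

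Total counts ranged from 34400949 to 37578722 in D69A tumors and from 25904345 to 37556163 in WT tumors. Pigment cell genes were high in both groups of tumors, all labelled as melanoma: Tyrp1, a melanosome enzyme gene, was 8182 to 9137 CPM (counts scaled to library size by TMM) in D69A tumors and 6794 to 7644 CPM in WT tumors. Immune content differed: a pan-leukocyte score, the mean log2 CPM of 32 genes found in most white blood cells, was 3.76 ± 0.42 in D69A tumors and 5.62 ± 0.53 in WT tumors (SD, n = 5 each). Of these 32 genes 30 were lower in D69A tumors, beside 24.7% of all tested genes (edgeR's quasi-likelihood test, Benjamini-Hochberg adjusted p under 0.05). Other cell types differed too: the fibroblast score was 4.46 ± 0.63 in D69A tumors and 6.60 ± 0.52 in WT tumors (SD, n = 5 each). Lower in D69A tumors were 22 of 24 tested fibroblast genes, 19 of 21 endothelial genes and 0 of 24 skeletal muscle genes. In bulk RNA, fewer cells of a type and less RNA per cell cannot be told apart. Skeletal muscle markers, which can mark adjoining tissue, ranged widely in both groups, with scores of -1.82 to 4.27 in D69A tumors and -1.18 to 5.67 in WT tumors, and were highest in WT 4, WT 3 and D69A 1.

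Tex13b was nearly lost from D69A tumors. It stood at 0.829, 1.06, 1.08, 0.917 and 0.977 CPM in D69A tumors 1 to 5, against 24.4, 15.8, 20.3, 12.6 and 21.3 CPM in WT tumors 2 to 6. These levels rested on 31 to 38 counts per D69A tumor and 472 to 943 counts per WT tumor. The highest D69A tumor stood at 8.56% of the lowest WT tumor. D69A tumors averaged 0.972 ± 0.104 CPM and WT tumors 18.9 ± 4.65 CPM (SD, n = 5 each), a fitted log2 fold change of -4.27 (SE 0.20), or 19.4-fold lower. In no D69A tumor did the gene reach 0, and the 95% Poisson interval of the lowest one, D69A 1, ran from 0.563 to 1.18 CPM, counting error only. The D69A tumors lay within one another's counting error, whereas WT 5 at 11.5 to 13.8 CPM and WT 2 at 22.8 to 26.0 CPM did not overlap.

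Fam49a had a smaller drop, and its spread relative to the mean was 11.8% in D69A tumors and 12.6% in WT tumors (coefficient of variation). It stood at 11.8, 12.8, 9.28, 11.8 and 12.5 CPM in D69A tumors 1 to 5, against 33.6, 43.6, 36.3, 45.4 and 42.6 CPM in WT tumors 2 to 6. D69A 3 was the low one of its group, and WT 2 and WT 4 were the low ones of theirs. The means were 11.6 ± 1.38 CPM in D69A tumors and 40.3 ± 5.07 CPM in WT tumors (SD, n = 5 each), with a log2 fold change of -1.79 (SE 0.11), or 3.46-fold lower.

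Adh7 was 15.4, 15.2, 11.4, 15.4 and 12.2 CPM in D69A tumors 1 to 5, against 34.2, 41.3, 33.3, 37.1 and 40.9 CPM in WT tumors 2 to 6. D69A 3 and D69A 5 lay below the other D69A tumors, and WT 4 and WT 2 below the other WT tumors. The means were 13.9 ± 1.96 CPM in D69A tumors and 37.4 ± 3.69 CPM in WT tumors (SD, n = 5 each), with a log2 fold change of -1.42 (SE 0.11), or 2.68-fold lower. Per kilobase of exon, Adh7 had the highest level of the 3 in D69A tumors, at 3.68 CPM per kb against 9.86 CPM per kb in WT tumors. Fam49a followed in D69A tumors with 0.923 CPM per kb against 3.20 CPM per kb in WT tumors, and Tex13b came last there with 0.347 CPM per kb against 6.74 CPM per kb in WT tumors. In WT tumors Tex13b thus stood above Fam49a on this scale.

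**Figure D1:**
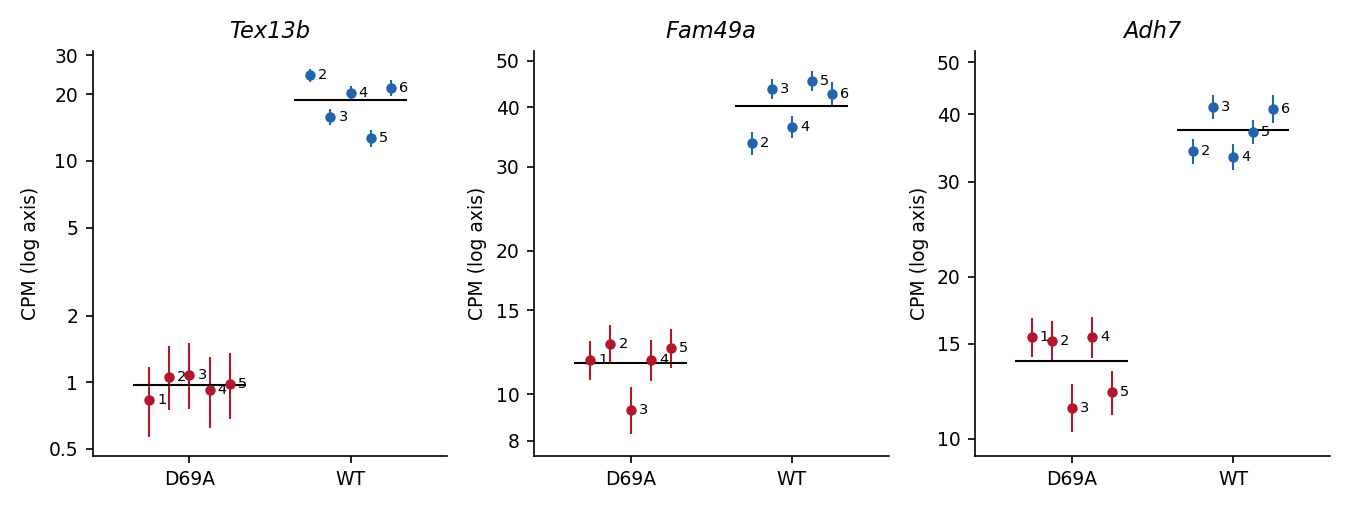
CPM (log axis) of Tex13b, Fam49a and Adh7 in each D69A tumor (left, red) and each WT tumor (right, blue), with 95% Poisson intervals for counting error as vertical lines, the group mean as a horizontal line and the tumor number beside each point. The groups do not overlap in any panel, and the highest D69A tumor reaches 8.56% of the lowest WT tumor for Tex13b, 38.0% for Fam49a and 46.3% for Adh7.

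A clean gap between the groups was common in these data. All D69A tumors were below all WT tumors for 2400 of the 13798 tested genes (17.4%), and 6004 genes (43.5%) passed edgeR's quasi-likelihood test after Benjamini-Hochberg adjustment, 3410 (24.7%) lower and 2594 (18.8%) higher in D69A tumors. What set the 3 genes apart, by choice, was the size of the gap for the spread. In log2 CPM (prior count 2), the gap between the highest D69A and the lowest WT tumor was 3.48 for Tex13b, 1.39 for Fam49a and 1.11 for Adh7. Divided by the pooled within-group SD, it came to 12.2, 7.55 and 6.19, which gave Tex13b rank 1, Fam49a rank 3 and Adh7 rank 5 among 12640 genes of at least 1 CPM.

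Ranks 2 and 4 went to genes outside the 3. Hebp2, which encodes a haem-binding protein, had a ratio of 9.36 from a gap of only 0.88, and Gm6880, a gene known only by its model name, had 6.21. Just outside lay Fggy, a carbohydrate kinase gene, with 5.85 and a gap of 1.39 like that of Fam49a. The SDs themselves were not small for this series: 77.0% of the ranked genes had a smaller pooled SD than Tex13b (0.29), 59.4% a smaller one than Fam49a (0.18) and 58.0% a smaller one than Adh7 (0.18).

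**Figure D2:**
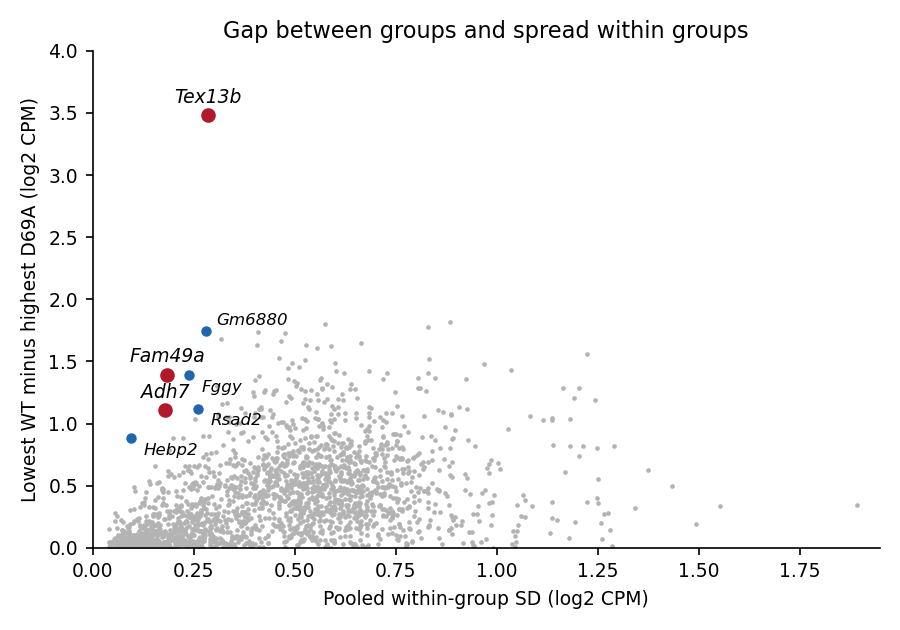
Gap between the lowest WT and the highest D69A tumor (vertical, log2 CPM) against the pooled within-group SD (horizontal, log2 CPM) for the 2064 genes of at least 1 CPM whose groups do not overlap and that are lower in D69A. Tex13b stands alone at a gap of 3.48, and Fam49a and Adh7 (red) lie near Hebp2, Fggy, Rsad2 and Gm6880 (blue) at the edge of large gap and small SD.

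Whether the genes followed immune content inside the groups was tested with the pan-leukocyte score centred within each group, so that the difference between the groups did not enter. A slope of 1 means that a gene doubled with each doubling of the leukocyte genes. Because spread was used to pick the 3 genes, shallow slopes are partly fixed by that choice. In this fit 2018 of the 13798 genes (14.6%) had a slope past the threshold, 1607 (11.6%) of them positive and 411 (2.98%) negative.

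Tex13b ran against the leukocyte genes. Ordered by rising score, the WT tumors were WT 2, 6, 4, 3 and 5, with scores of 4.89, 5.38, 5.57, 6.08 and 6.20, and their Tex13b levels were 24.4, 21.3, 20.3, 15.8 and 12.6 CPM. Each step up in score was a step down in Tex13b. D69A 1, with the highest score of its group (4.49), had the lowest level, 0.829 CPM, and D69A 3, with the lowest score (3.38), had the highest level, 1.08 CPM. Counting error alone can give this order in D69A tumors: the 95% Poisson intervals overlapped, at 0.563 to 1.18 CPM in D69A 1 and 0.757 to 1.50 CPM in D69A 3. The slope over both groups was -0.57 log2 units per score unit (SE 0.12, 95% interval -0.83 to -0.31), which passed the threshold (edgeR's quasi-likelihood test, Benjamini-Hochberg adjusted p = 0.0075). Only 1.06% of tested genes had a lower slope. The call, but not the size of the slope, depended on WT 2. Without that tumor the slope was -0.58 and did not pass (edgeR's quasi-likelihood test, adjusted p = 0.0693), in a fit where 1037 genes passed.

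Split by group, the Tex13b slope was -0.31 in D69A tumors (SE 0.21), which did not pass (edgeR's quasi-likelihood test, adjusted p = 0.547), and -0.67 in WT tumors (SE 0.13), which did (edgeR's quasi-likelihood test, adjusted p = 0.00474). Their difference, D69A minus WT, was 0.36 with a 95% interval of -0.20 to 0.92 and did not pass either (edgeR's quasi-likelihood test, adjusted p = 0.535), so the slopes were not shown to differ. The share of all genes past the threshold was 7.1% in D69A tumors, 26.2% in WT tumors (9.57% with a negative slope) and 6.31% for the difference. Without WT 2 the Tex13b slope in WT tumors was -0.85 (SE 0.21) and passed (edgeR's quasi-likelihood test, adjusted p = 0.0393).

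The slopes of Fam49a and Adh7 on the score did not pass. The Fam49a slope was 0.24 (SE 0.11, 95% interval 0.0015 to 0.47), and it did not pass after adjustment (edgeR's quasi-likelihood test, adjusted p = 0.170). The Adh7 slope was 0.18 (SE 0.11, 95% interval -0.068 to 0.43), which did not pass either (edgeR's quasi-likelihood test, adjusted p = 0.322). Genes picked for a small spread against their gap could hardly have had steep slopes, so their size is a description. Without D69A 3 the slopes were 0.15 for Fam49a and 0.097 for Adh7. Of the tested genes, 73.9% had a lower slope than Fam49a and 70.8% a lower one than Adh7.

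Neither gene passed within either group. In D69A tumors the slope was 0.14 for Fam49a and 0.29 for Adh7 (edgeR's quasi-likelihood test, adjusted p = 0.672 and 0.375), and in WT tumors it was 0.29 and 0.12 (adjusted p = 0.129 and 0.572 in the same test). The difference between the groups was -0.15 for Fam49a, with a 95% interval of -0.64 to 0.35, and 0.18 for Adh7 (edgeR's quasi-likelihood test, adjusted p = 0.732 and 0.684). The slopes in D69A tumors rested on D69A 1, the tumor of highest score: without it they were 1.51 for Fam49a (SE 0.48) and 1.28 for Adh7 (SE 0.61), over 4 tumors with scores of 3.38 to 3.69 only, and did not pass (edgeR's quasi-likelihood test, adjusted p = 0.573 and 0.766). The differences between the groups were then 1.22 and 1.16. Without D69A 3, the lowest tumor in score and in Fam49a, the D69A slope of Fam49a was -0.076.

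Most genes of the T cell, NK cell and interferon-gamma response lists had positive slopes past the threshold on the same score. Of all tested genes 11.6% did, and of the B cell list 2 of 6 tested genes. Such slopes were not particular to immune genes: 21 of 24 fibroblast genes and 11 of 21 endothelial genes also had them, and 1 of 24 skeletal muscle genes. The score thus does not tell immune content from fibroblast and endothelial content. Of the T cell list 21 of 24 tested genes had a positive slope past the threshold, with a median of 1.51, of the NK cell list 16 of 25 with a median of 1.11, and of the interferon-gamma response list 23 of 31 with a median of 0.86, against a median of 0.006 over all genes. The T cell list ran from -0.45 for Tcf7, which did not pass (edgeR's quasi-likelihood test, adjusted p = 0.128), to 1.73. No difference between these slopes and those of the 3 genes was tested. Lck, a T cell kinase, was 6.55, 4.79, 3.99, 4.79 and 3.75 CPM in D69A tumors 1 to 5, against 10.4, 19.5, 18.2, 24.3 and 11.6 CPM in WT tumors 2 to 6, with a slope of 0.82. Its fall between the groups, a log2 fold change of -1.81, was close in size to that of Fam49a. Cd8a, the co-receptor of cytotoxic T cells, had a slope of 1.66, and Laptm5, a lysosomal protein of white blood cells that is itself in the score, one of 1.19.

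**Figure D3:**
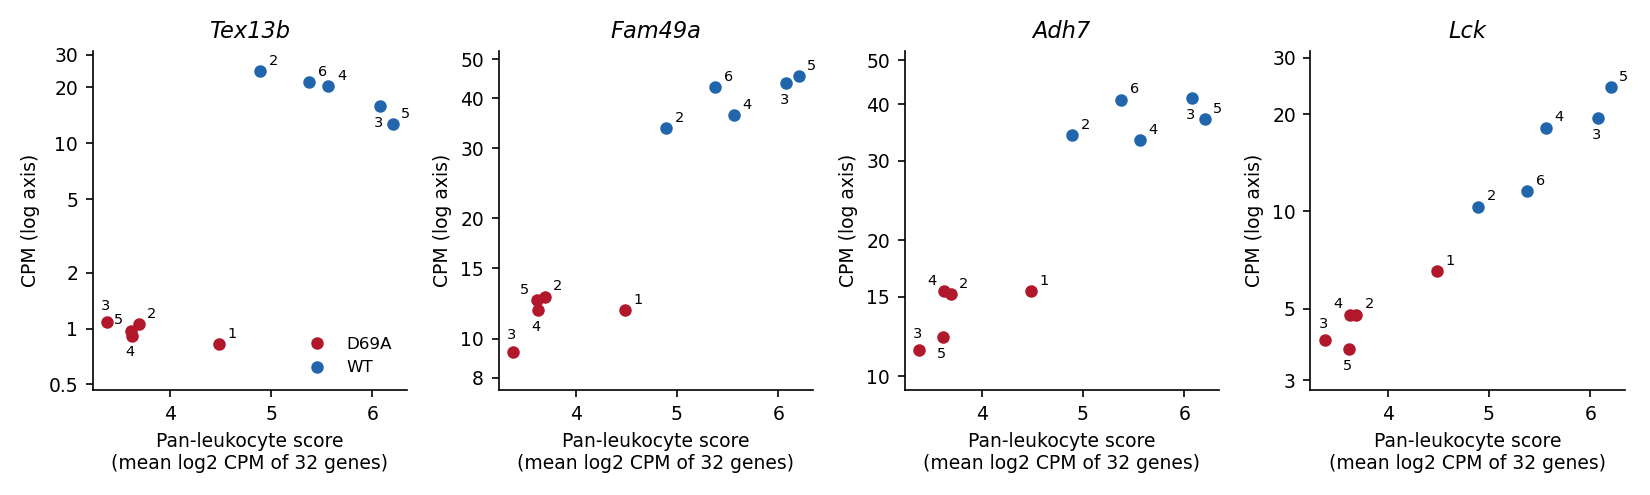
CPM (log axis) of Tex13b, Fam49a, Adh7 and the T cell gene Lck against the pan-leukocyte score (mean log2 CPM of 32 genes) in each numbered D69A tumor (red) and WT tumor (blue). Lck has a slope of 0.82 over both groups, Fam49a and Adh7 have slopes of 0.24 and 0.18, and Tex13b falls across the WT tumors, 24.4 CPM at the lowest WT score and 12.6 CPM at the highest.

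**Figure D4:**
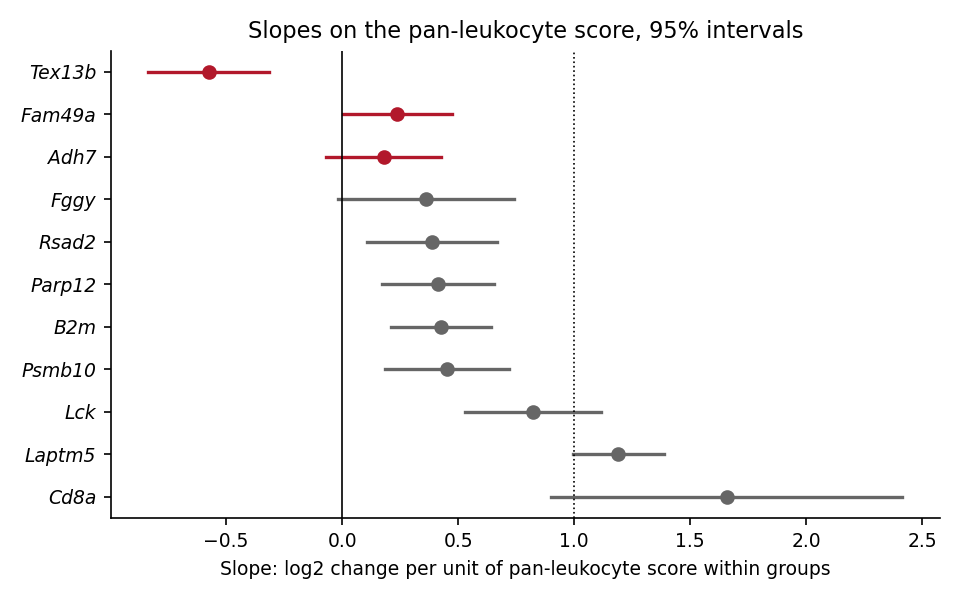
Slopes within groups (log2 change per unit of the pan-leukocyte score, points) with 95% intervals (lines) for Tex13b, Fam49a and Adh7 (red) and for 8 other genes (grey), with a solid line at 0 and a dotted line at 1. Tex13b lies below 0 at -0.57, Fam49a and Adh7 lie at 0.24 and 0.18, and the other genes run from 0.36 for Fggy to 1.66 for Cd8a.

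Some pigment cell genes had negative slopes, as Tex13b did. Of the 22 melanocyte list genes, 9 had a negative slope past the threshold (edgeR's quasi-likelihood test, Benjamini-Hochberg adjusted p under 0.05). Of all tested genes 2.98% did. The 22 slopes had a median of -0.27 and a range of -0.66 to 1.09. Pmel, which builds the fibrils of the melanosome, ranked the WT tumors in the same order as Tex13b, with 5132, 4848, 4747, 4397 and 3681 CPM in WT 2, 6, 4, 3 and 5, and had a slope of -0.29 (edgeR's quasi-likelihood test, adjusted p = 0.0296). Dct, an enzyme of melanin synthesis, had a slope of -0.42 (edgeR's quasi-likelihood test, adjusted p = 0.00753). Tyrp1 did not share the order of Pmel: in WT 2, 6, 4, 3 and 5, it was 6794, 7644, 7008, 7417 and 7277 CPM, with its lowest value in WT 2. Between the groups, 14 of the 22 pigment genes were higher in D69A tumors, beside 18.8% of all genes, at a median of 0.47 on the log2 scale. The melanocyte score was 8.73 ± 0.16 in D69A tumors and 8.25 ± 0.08 in WT tumors (SD, n = 5 each). Tex13b had a slope of 1.85 on that score, which did not pass (edgeR's quasi-likelihood test, adjusted p = 0.187). What part the share of melanoma cells has in the Tex13b slope was not tested.

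On the interferon-gamma score, the mean log2 CPM of 31 response genes, none of the 3 passed after adjustment. The slopes were -0.37 for Tex13b, 0.24 for Fam49a and 0.26 for Adh7 (edgeR's quasi-likelihood test, adjusted p = 0.283, 0.253 and 0.155), in a fit where 4.85% of genes passed. Before adjustment Fam49a and Adh7 were under 0.05 in the same test, and Tex13b was not. The score itself was 4.47 ± 0.58 in D69A tumors and 6.78 ± 0.44 in WT tumors (SD, n = 5 each).

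Among the 10 scores of other cell types, each in its own fit, Tex13b passed for 3. Slopes were -0.57 on the myeloid score, -0.95 on the endothelial score and -0.87 on the keratinocyte score (edgeR's quasi-likelihood test, adjusted p = 0.00555, 0.0334 and 0.0135), in fits where 13.9%, 12.5% and 16.3% of genes passed. It did not pass for the T cell (-0.37), NK cell (-0.43), B cell (-0.48), fibroblast (-0.45), skeletal muscle (-0.026), adipocyte (-0.26) and melanocyte scores. In those fits 10.4%, 8.81%, 0%, 8.15%, 0.645%, 0% and 5.38% of genes passed. The scores share tumors and move with one another, so the fits are not separate evidence. In the B cell and adipocyte fits of edgeR's quasi-likelihood test, 2328 and 2984 genes had an unadjusted p under 0.05. Over the 12 scores in all, Tex13b had an unadjusted p under 0.05 in the same test for 10 and passed for 4. Fam49a and Adh7 passed for none of the 12, although their unadjusted p in the same test was under 0.05 for 5 and 2 of the scores. Their closest approaches were Fam49a on the keratinocyte score, with a slope of 0.42 (edgeR's quasi-likelihood test, adjusted p = 0.0879), and Adh7 on the interferon-gamma score. Keratinocyte markers matter here because Adh7 is known from lining epithelia: 9 of the 25 were tested, their score was -1.13 to -0.90 in D69A tumors and -0.42 to 0.66 in WT tumors, and the Adh7 slope on it was 0.13 (edgeR's quasi-likelihood test, adjusted p = 0.672). The score was low, and its SD was 0.09 in D69A tumors and 0.42 in WT tumors. Slopes on it, that of Tex13b included, therefore rest mainly on WT tumors.

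The pair of tumors nearest in pan-leukocyte score across the groups was D69A 1 and WT 2, and by the choice of the genes any such pair shows a drop. Their pan-leukocyte scores were 4.49 in D69A 1 and 4.89 in WT 2, a difference of -0.41. Their T cell scores differed by -0.50, their interferon-gamma scores by -0.80 and their NK cell scores by -1.03. Between them Tex13b was 0.829 CPM in D69A 1 and 24.4 CPM in WT 2, Fam49a 11.8 CPM in D69A 1 and 33.6 CPM in WT 2, and Adh7 15.4 CPM in D69A 1 and 34.2 CPM in WT 2. On the log2 scale these differences were -4.79, -1.50 and -1.14. This is 1 tumor per group and has no replicate check.

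Genes were ranked by how closely their log2 CPM matched each of the 3 over the 10 tumors, as a root mean square (RMS) difference. Here values were centred over all 10 tumors, not within groups. The drop between the groups, which chose the 3 genes, therefore enters these differences, and a close match is a description. Fam49a had a near copy in Fggy, at 0.10, followed by Rsad2, the gene of the antiviral protein viperin, at 0.20, Parp12, an ADP-ribosyltransferase gene, at 0.21, the nucleotide kinase gene Cmpk2 at 0.21 and Tvp23a, a gene of Golgi transport, at 0.22. Fggy averaged 1.24 ± 0.20 CPM in D69A tumors and 4.55 ± 0.73 CPM in WT tumors (SD, n = 5 each). Adh7 was nearest to Psmb10, a subunit of the immunoproteasome, at 0.17, to B2m, the light chain of MHC class I, at 0.18, and to Parp10, Herc6 and Parp11 at 0.19 each. Herc6 encodes a ubiquitin-like ligase, and Parp10 and Parp11 encode ADP-ribosyltransferases. Fam49a and Adh7 were about as close to each other, at 0.22, as to these genes. The slopes of the 10 genes nearest to Fam49a or Adh7 ran from 0.29 for Parp11 to 0.47 for Parp10, each above the 0.24 of Fam49a and the 0.18 of Adh7. These differences in slope were not tested. Like those of Fam49a and Adh7, the slopes of Fggy, Rsad2, Cmpk2, Tvp23a and Parp11 did not pass (edgeR's quasi-likelihood test, adjusted p = 0.193, 0.0659, 0.0629, 0.0735 and 0.0694). Those of Parp12, Psmb10, B2m, Parp10 and Herc6 passed.

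Tex13b had no close match. The nearest genes were Ifit3 at 0.83, its neighbour Ifit3b at 0.85, Nr5a1, which encodes a transcription factor of steroid-making tissue, at 0.88, the interferon-induced gene Trim30a at 0.88 and the chemokine gene Xcl1 at 0.89. Fam49a differed from Tex13b by 1.25 and Adh7 by 1.41. Ifit3 and Ifit3b can share reads. Of the 5, Trim30a had the steepest positive slope, 1.02, and Nr5a1 the only negative one, -0.02.

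The relatives of Tex13b gave no second case. Of the 6 other names searched for the Tex13 family, Tex13c2 was listed, with 0 to 2 counts per tumor, and was not tested. Of 77 germline genes searched, 64 were listed and 26 tested. Of those tested, 9 were lower in D69A tumors and 5 higher, at a median of -0.18 on the log2 scale against 0.0024 over all genes, where 24.7% were lower and 18.8% higher. Magea8, a cancer-testis antigen gene, fell to 1.08 ± 0.44 CPM in D69A tumors, against 3.09 ± 0.51 CPM in WT tumors (SD, n = 5 each; log2 fold change -1.51, edgeR's quasi-likelihood test, adjusted p = 0.00147). Tdrd7, a Tudor domain gene of germ granules, fell by 0.41 on the log2 scale. Mov10l1, a helicase gene of the piRNA pathway, rose: it was 1.84 to 6.80 CPM in D69A tumors and 0 to 0.273 CPM in WT tumors. Piwil2, which encodes a PIWI protein, rose to 214.9 ± 7.76 CPM in D69A tumors, against 146.8 ± 28.9 CPM in WT tumors (SD, n = 5 each).

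Genes around the function of CYRI-A were split. Of 41 genes for Fam49b, the WAVE complex, Rac proteins and their regulators, 40 were tested, 19 were lower in D69A tumors and 7 higher, beside 24.7% and 18.8% of all genes, at a median of -0.19 on the log2 scale. Fam49b, which encodes the sister protein CYRI-B, was not detectably different, at 155.7 ± 4.21 CPM in D69A tumors and 148.4 ± 7.05 CPM in WT tumors (SD, n = 5 each; log2 fold change 0.07, edgeR's quasi-likelihood test, adjusted p = 0.248). Per kilobase Fam49b stood above Fam49a in both groups, at 13.6 CPM per kb in D69A tumors and 13.0 CPM per kb in WT tumors. Among the decreases were Rac2, the Rac protein of blood cells, at -2.19, and Dock2, the Rac activator of white blood cells, at -2.13, with slopes on the leukocyte score of 1.15 and 1.23. Dock2 is itself one of the 32 genes of the score. Among the increases were Dock1, a Rac activator of most cell types, at 0.74, and Abi2, a WAVE complex subunit, at 0.37.

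Genes of alcohol and retinoid metabolism also moved in both directions. Of 45 genes searched 39 were listed and 30 tested, of which 12 were lower in D69A tumors and 2 higher, beside 24.7% and 18.8% of all genes, at a median of -0.33 on the log2 scale. Without WT 3 the lower ones were 8. Aldh1a2, which makes retinoic acid, was 1.31 ± 0.62 CPM in D69A tumors and 8.68 ± 3.93 CPM in WT tumors (SD, n = 5 each; log2 fold change -2.72), and the retinol dehydrogenase gene Dhrs9 was at -1.99. Rdh11, a retinal reductase gene, rose by 0.65 on the log2 scale. Adh5, the class III enzyme that acts on formaldehyde bound to glutathione, was higher, at 181.4 ± 15.9 CPM in D69A tumors and 151.1 ± 12.2 CPM in WT tumors (SD, n = 5 each; log2 fold change 0.26, edgeR's quasi-likelihood test, adjusted p = 0.0159). Adh6b was listed with 0 to 15 counts per tumor and was not tested.

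Adh1, the class I enzyme and the nearest tested gene to Adh7 at 27.6 kb, was 2.05 ± 0.22 CPM in D69A tumors and 3.06 ± 0.86 CPM in WT tumors (SD, n = 5 each). At -0.58 on the log2 scale it passed narrowly (edgeR's quasi-likelihood test, adjusted p = 0.0471), and no longer passed when any 1 of the 5 D69A tumors or any 1 of WT tumors 3, 4 and 5 was left out. Of the 5 annotated genes on each side of Adh7, 3 were tested: Adh1, Mttp (log2 fold change 0.12) and Trmt10a (0.12), and the last 2 did not pass (edgeR's quasi-likelihood test, adjusted p = 0.329 and 0.392). Of the 10 around Tex13b, 4 were tested. Atg4a and Psmd10 were higher by 0.36 and 0.26 on the log2 scale, and Mid2 and Vsig1, at 0.20 and 0.04, did not pass (edgeR's quasi-likelihood test, adjusted p = 0.0531 and 0.941). The 10 around Fam49a were not among the genes listed. The drops of Tex13b and Adh7 thus stood beside tested neighbours with log2 fold changes between -0.58 and 0.36.

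The 3 genes share little sequence with others. Of the 50-base stretches in their annotated transcripts, 0.291% for Tex13b, 1.12% for Fam49a and 1.66% for Adh7 also occurred in transcripts of other genes on either strand. For Fam49a most of these lay in the antisense gene 4921511I17Rik (0.934%), and for Adh7 in the antisense gene 0610031O16Rik. The sources used here do not say whether counting used strand, so reads of these partners cannot be told apart in the shared stretches.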

How the data were processed

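The authors deposited raw counts per Ensembl gene, as whole numbers for 10 tumors. The submitters' processing notes name fastp, HISAT, Bowtie, RSEM and the build mm10. What each tool did, its version, the annotation and whether strand was used is not given in the sources used here. Since RSEM estimates counts, the deposited ones may be rounded. Symbols (17670 of 17737 identifiers) and positions came from GENCODE vM21. Genes were filtered with filterByExpr by group, scaled by TMM and tested with edgeR's quasi-likelihood test (edgeR 4.0.16, R 4.3.3), and p-values were adjusted by Benjamini-Hochberg over 13798 genes (threshold 0.05). Slopes came from fits of group plus a score, the mean log2 CPM (prior count 2) of a gene list, centred within groups. SEs were derived from F. DESeq2 1.42.0, other scalings, no filter, a replicate block and leaving out each tumor were alternatives. The test was also run on simulated counts. Unlike the data here, these had the same dispersion for all genes and a score not built from the counts.

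The 3 genes and all lists were chosen with earlier results of these data known. Other genes were named by rule: up to 4 of each list or neighbour set with the smallest p, the 5 nearest patterns, the most abundant yardstick genes, and the 5 largest ratios of gap to SD. Pmel, Dct and Tyrp1 lie outside this rule and were named after their values were seen. All pairs of tumors of 1 group differed by more than sampling noise (smallest chi-square per degree of freedom 13.9), and each was counted as 1 replicate. The Poisson intervals cover counting error only. Some genes that the rule names are not reported here.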

Additional observations from a re-analysis of the deposited data

Results flagged for a closer look

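Of 30 sets of 5 values examined (the 3 genes and 12 scores in each group), 3 held a tumor far from the other 4, where chance flags about 1 in 20. Fam49a was 9.28 CPM in D69A 3, below 11.8 to 12.8 CPM in the other D69A tumors. The pan-leukocyte score of D69A 1 was 4.49, above 3.38 to 3.69 in the other D69A tumors. The endothelial score of D69A 1 was 3.36, above 2.74 to 2.92 in the other D69A tumors.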

How the results depend on the processing

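The log2 fold changes kept their sign in 17 alternatives, at -4.36 to -4.14 for Tex13b, -1.85 to -1.68 for Fam49a and -1.46 to -1.32 for Adh7. The Tex13b slope on the pan-leukocyte score stayed negative in all 24, at -0.80 to -0.37. It stayed past the threshold in 19, among them the exact permutation, whose p was not adjusted. It did not pass with the replicate number as a block (-0.54, edgeR adjusted p = 0.249, with 617 genes passing), with the T cell score (-0.37) or the NK cell score (-0.43, 1216 genes), or without the 2 tumors of extreme score, WT 2 and D69A 1 (-0.80, edgeR adjusted p = 0.0653, 473 genes). Leaving out 1 tumor gave -0.66 to -0.50, with 1037 (without WT 2) to 2878 genes passing against 2018. Replicate numbers did not pair the tumors (correlations of deviations from -0.417 to 0.203 for 4 shared numbers). Under the block, added for the split slopes after seeing the data, the Tex13b slope was 0.0991 in D69A tumors and -0.65 in WT tumors (edgeR adjusted p = 0.333), the slopes over both groups 0.47 for Fam49a and 0.44 for Adh7 (neither passing), the Fam49a difference 1.50 and the genes near Adh7 that were lower 0. Without the 3 tumors highest in muscle markers, the Fam49a difference was 1.20, also an added alternative, 5 germline genes were lower and 3 higher, and the genes lower near Adh7 were 0. That count was also 0 with no low-count filter, and 0 to 1 with 1 tumor left out. Library size alone left 1 gene higher near Tex13b. Leaving out 1 tumor gave 3 to 6 germline genes higher, a Fam49a difference of -0.33 to 1.22 and a Fam49a slope in D69A tumors of -0.0759 to 1.51. An exact permutation within groups, unadjusted, gave p = 0.0459 for Tex13b (-0.33) and p = 0.0202 for Adh7 (0.26) on the interferon-gamma score, and p = 0.000625 for Tex13b on the pan-leukocyte score. Depth limits Tex13b in D69A tumors, where 31 to 38 counts underlie each value.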
